A study of Mus musculus with 12 samples.

Results

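The 8 genes described here, Ces1d, Ces1e, Ces1f, Ces1g, Ces2a, Ces2b, Ces2c and Ces2e, encode mouse carboxylesterases. They were chosen by symbol, as the rows of the deposited tables whose Ensembl identifier maps to these names. All 8 were found among 55487 genes, and all 8 were among the 19581 genes with enough counts to be tested. RNA had been sequenced from C57BL/6 mice in 12 libraries that fall into 4 groups of 3. The SI tissue and LI tissue groups are crypts freshly isolated from the small intestine (SI) and the large intestine (LI), each from 3 mice. SI monolayers and LI monolayers are epithelial sheets grown from intestinal crypts for 24 h, each with 3 samples of pooled wells. For monolayers, both regions were harvested from the same mice. Which SI and LI libraries share a mouse, also in tissue, was not given in the sources used here. The study set monolayers beside tissue of the same region because they served as a model for testing the gut toxicity of drugs. The mice were of both sexes and 6 to 10 weeks old. The monolayers were kept without drug in control medium with added growth factors (Wnt3a, EGF, Noggin and R-spondin-1), which the tissue groups did not receive. For the first 4 h after seeding, their medium held small-molecule compounds in place of Noggin. A compound of these was also in the medium in which LI pieces were digested. SI monolayers were seeded with jejunal crypts. LI crypts were released with enzymes and EDTA and SI crypts with EDTA without that digestion, so region and isolation cannot be told apart.

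Carboxylesterases are serine hydrolases, mostly of the endoplasmic reticulum, that cut ester and amide bonds in lipids and in drugs. Enzymes of the Ces1 family are best known from liver, where they act on bulky acyl groups and on stored lipid, and enzymes of the Ces2 family from the intestinal epithelium, where they meet swallowed esters first. Irinotecan is hydrolysed by these enzymes to the compound that poisons topoisomerase I, and the first step in turning capecitabine into fluorouracil is also theirs. Mice have more genes of both families than humans, so that a mouse gene has no single human counterpart.

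Both families lie on chromosome 8 in the GRCm38 assembly. The 4 Ces1 genes are on the minus strand, with Ces1d (ENSMUSG00000056973.6) at 93166068 to 93197838, Ces1e (ENSMUSG00000061959.13) at 93201218 to 93229619, Ces1f (ENSMUSG00000031725.8) at 93256236 to 93279747 and Ces1g (ENSMUSG00000057074.6) at 93302369 to 93337308. The 4 Ces2 genes are on the plus strand, with Ces2a (ENSMUSG00000055730.16) at 104734003 to 104741634, Ces2b (ENSMUSG00000050097.6) at 104831572 to 104840093, Ces2c (ENSMUSG00000061825.10) at 104847068 to 104854483 and Ces2e (ENSMUSG00000031886.14) at 104926260 to 104934672. Their longest coding sequences encode 556 to 565 amino acids. In an alignment of these coding sequences, the Ces1 genes were identical to each other at 74.4% to 81.6% of bases and the Ces2 genes at 82.6% to 91.9%, while a Ces1 and a Ces2 gene shared 52.2% to 55.7%. Ces2b and Ces2c were the most alike pair of the 8.

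Reads from such close copies can be assigned to the wrong gene. Of all 50-base windows in the annotated transcripts, between 0.903% and 2.97% in the Ces1 genes, 3.30% in Ces2e and 9.66% in Ces2b also occur in a transcript of another gene. The share was 17.3% in Ces2a, nearly all of it with the pseudogene Gm7208, and 36.1% in Ces2c, most of it with the pseudogene Ces2d-ps. Over 100-base windows it was 8.13% in Ces2a and 13.6% in Ces2c, 0.0881% in Ces2b and 0 in the other 5 genes. How the authors treated reads that match several genes was not given in the sources used here, so the counts of Ces2a and Ces2c are uncertain by what those copies take or give. Over the 12 libraries Gm7208 held 1254 counts beside 217111 for Ces2a, and Ces2d-ps held 3057 beside 282647 for Ces2c. The pseudogenes Gm6831 and Gm8798, which share fewer windows with Ces2c, held 4485 and 704 counts. Most counts of Gm6831 came from SI monolayers, where its mean was 19.6 CPM beside 0.810 in SI tissue. Gm7208, Gm6831 and Gm8798 were named after their values were seen.

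The promoters of Ces2a, Ces2c and Ces2e are shown because these genes of 1 cluster carried most of the carboxylesterase RNA in every group. From tissue to monolayers their log2 fold changes were 2.09, 0.65 and -1.45 in SI, while in LI all 3 fell. Each is the 250 bases before the start of the gene, 5′ to 3′ on the plus strand, from RefSeq (GRCm38.p6). They lie at chr8:104733753-104734002 for Ces2a, chr8:104846818-104847067 for Ces2c and chr8:104926010-104926259 for Ces2e, and capitals mark the bases that are the same in all 3 sequences in an alignment.
Ces2a: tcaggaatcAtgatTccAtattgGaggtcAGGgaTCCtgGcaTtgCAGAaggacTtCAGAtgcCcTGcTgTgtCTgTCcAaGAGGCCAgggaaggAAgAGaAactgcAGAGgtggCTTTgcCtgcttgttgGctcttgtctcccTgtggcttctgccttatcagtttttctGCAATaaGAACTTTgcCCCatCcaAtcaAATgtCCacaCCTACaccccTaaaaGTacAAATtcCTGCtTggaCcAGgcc
Ces2c: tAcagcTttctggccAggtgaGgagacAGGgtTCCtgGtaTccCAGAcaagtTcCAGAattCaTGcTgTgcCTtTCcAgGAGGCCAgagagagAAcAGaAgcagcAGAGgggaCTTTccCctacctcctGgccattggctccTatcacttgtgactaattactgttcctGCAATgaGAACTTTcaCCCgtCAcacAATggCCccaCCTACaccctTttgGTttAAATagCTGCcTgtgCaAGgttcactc
Ces2e: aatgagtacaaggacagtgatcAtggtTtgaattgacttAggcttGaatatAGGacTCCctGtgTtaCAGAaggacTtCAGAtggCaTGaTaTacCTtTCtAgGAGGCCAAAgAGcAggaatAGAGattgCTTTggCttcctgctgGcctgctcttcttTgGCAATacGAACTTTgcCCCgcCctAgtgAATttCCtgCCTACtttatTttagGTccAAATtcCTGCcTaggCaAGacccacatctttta
Of 206 positions with a base in all 3, 46.6% were identical. Ces2a and Ces2e shared 65.4% of aligned bases, Ces2a and Ces2c 63.2%, and Ces2c and Ces2e 58.5%. The longest stretches that were the same in all 3 without a gap, GAGGCCA and GAACTTT, hold 7 bases each.

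RefSeq promoters matched 5 of the 8 genes, Ces1e, Ces1g, Ces2a, Ces2c and Ces2e, and none was used for Ces1d, Ces1f and Ces2b. Windows from 250 bases before to 50 bases after the start were searched on both strands for CAAAGTCC (a motif of HNF4, the nuclear receptor of liver and gut epithelium), TTTATGG (a motif of the intestinal homeobox factors CDX) and TGACNNNGC (the core of the response element of Nrf2, which switches on detoxification genes). CAAAGTCC and TGACNNNGC had no match in these letters in the 5 windows, and they occur in 1.42% and 12.4% of all 32851 promoters in the table. TTTATGG, held by 2.75% of all promoters, was found in 1 of the 5, that of Ces1g, with no other motif over it. It lies 208 bases before the RefSeq start, 93337209, and 109 bases before the start in the gene annotation used for the positions, 93337308. For the other 4 genes both sources give the same start.

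The libraries held 59016196 to 76216530 counts, at which 3 counts amount to 0.0394 to 0.0508 CPM, the count of a gene scaled to the total of its library. Levels are given as CPM after scaling the libraries by edgeR's TMM method, as means ± SD over the 3 libraries of a group. Levels of different genes are compared only after division by transcript length, as CPM per kilobase (CPM per kb). A gene was called higher or lower where edgeR's quasi-likelihood test gave an adjusted p below 0.05 together with a log2 fold change of 1 or more in size, and ± after a log2 fold change is its standard error. Mitochondrial genes took 4.56% to 9.16% of counts in SI tissue, 2.25% to 2.59% in LI tissue and 0.472% to 0.750% in the monolayers. Among the LI tissue libraries the small intestinal gene Sis ranged from 2.82 to 24.7 CPM. In these bulk samples fewer cells of a type and less RNA per cell cannot be told apart.

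Together the 8 genes reached 572 ± 97.0 CPM per kb in tissue and 693 ± 12.5 in monolayers of SI. In LI they reached 298 ± 26.1 CPM per kb in tissue and 45.0 ± 2.39 in monolayers. The summed level in LI monolayers was 6.63-fold below LI tissue and 15.4-fold below SI monolayers, with no overlap between libraries. SI monolayers stood 1.21-fold above SI tissue on this scale, and each of the 3 exceeded every SI tissue library, whose values spread from 476 to 670.0 CPM per kb. Without division by length the 2 groups overlapped, with 1214 to 1718 CPM in SI tissue and 1629 to 1682 CPM in SI monolayers. The Ces2 genes made up nearly all of it. The Ces1 genes contributed 6.08% ± 1.45 in SI tissue and 11.3% ± 0.594 in LI tissue, and 1.65% ± 0.0655 and 1.75% ± 0.339 in SI and LI monolayers. The Ces1 share was thus lower in monolayers than in tissue in both regions, with no library of one preparation inside the range of the other.

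**Figure D1:**
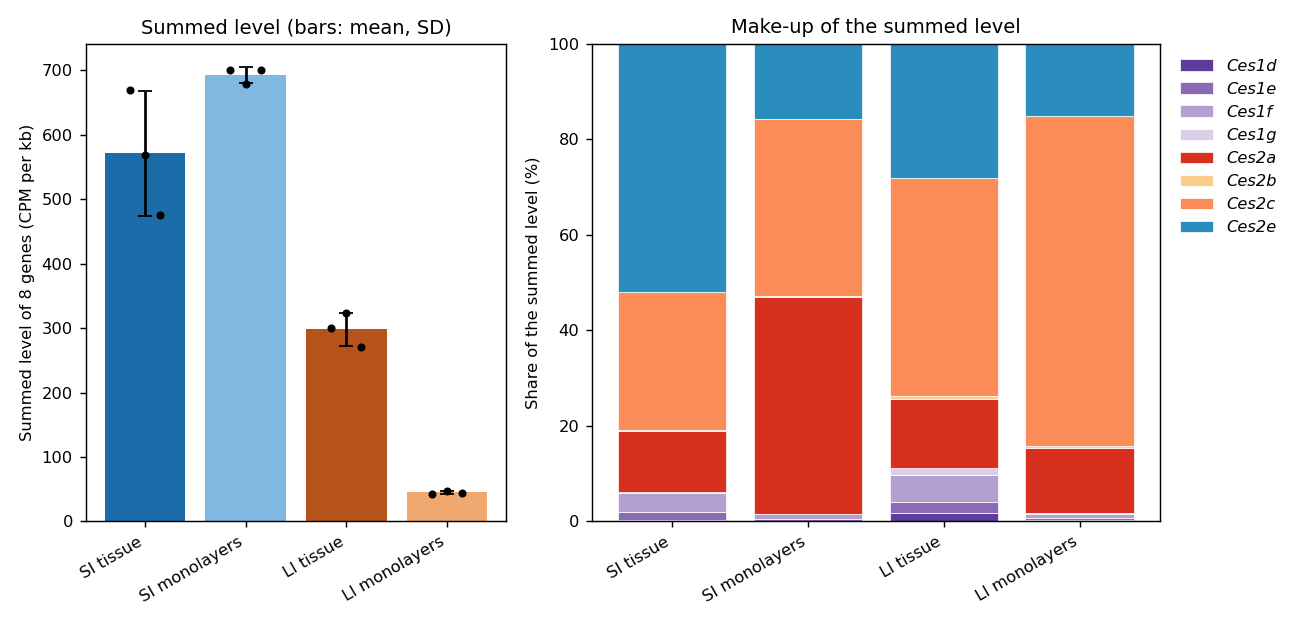
Left, the level of the 8 carboxylesterases summed in each library (points), with the group mean (bars) and SD (whiskers), in CPM per kb. Right, the mean share of each gene in that sum, in percent. LI monolayers have the lowest sum, 45.0 CPM per kb, and in SI monolayers Ces2a takes 45.4% in place of the 12.9% it has in SI tissue.

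The make-up of the sum differed between groups. In SI tissue Ces2e provided 51.9% ± 0.574, Ces2c 28.9% ± 1.38 and Ces2a 12.9% ± 1.28. In SI monolayers Ces2a provided 45.4% ± 0.258, Ces2c 37.1% ± 0.330 and Ces2e 15.7% ± 0.107. The most abundant carboxylesterase transcript per length was thus Ces2e in SI tissue and Ces2a in SI monolayers. Ces2c led in LI tissue with 45.7% ± 0.541 and more so in LI monolayers with 69.2% ± 2.52. The ratio of Ces2a to Ces2e per length was 0.227 to 0.270 in the SI tissue libraries and 2.86 to 2.91 in the SI monolayers. For LI it was 0.490 to 0.545 in tissue and 0.867 to 0.963 in monolayers. The 4 groups did not overlap in this ratio.

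LI monolayers held the lowest level of each of the 8 genes, and the other 3 groups came in 5 different orders. Ces2a and Ces2c were highest in SI monolayers, followed by SI tissue and LI tissue. Ces2e, Ces1e and Ces1f were highest in SI tissue, and Ces1d, Ces1g and Ces2b in LI tissue. Of the 24 neighbouring pairs in these orders, 3 overlapped between libraries, which were SI and LI tissue for Ces1f and for Ces2c, and SI tissue and SI monolayers for Ces2b.

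**Figure D2:**
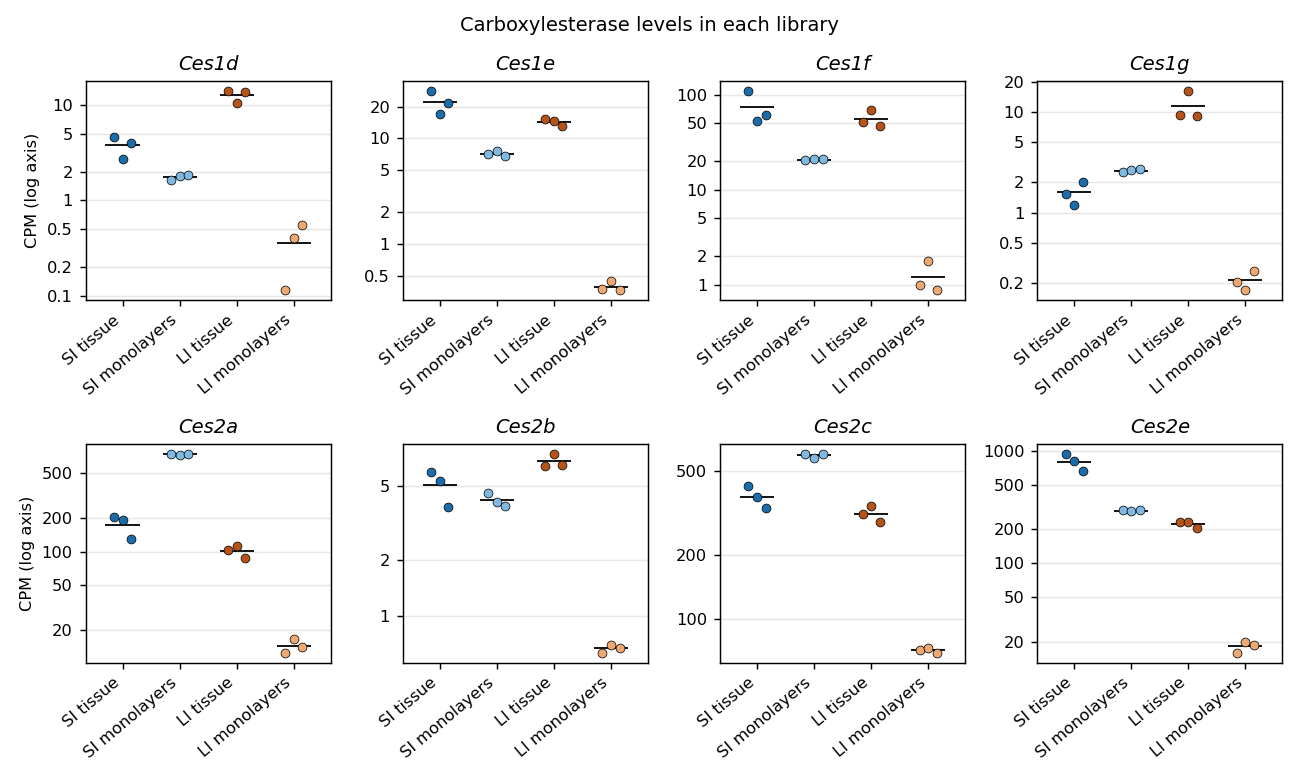
Level of each carboxylesterase in CPM, on a log axis that differs between panels, in the 12 libraries; points are libraries and the line is the group mean. The LI monolayer points lie below all others in each of the 8 panels, and Ces2a lies near 742 CPM in SI monolayers.

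The comparison of SI monolayers with SI tissue asks how far the cultured small intestine kept the carboxylesterase expression of the tissue. The monolayers came from jejunum, while the segment of the SI tissue crypts was not given in the sources used here, so segment and culture cannot be told apart. Of the 8 genes, 1 rose (Ces2a) and 4 fell (Ces1d, Ces1e, Ces1f and Ces2e), where 9.71% of all tested genes were called higher and 16.4% lower. The libraries of the 2 groups did not overlap for 7 of the 8, against 66.4% of tested genes. The median log2 fold change of the 8 was -0.67 and that of all tested genes -0.05.

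Ces2a, an intestinal and hepatic hydrolase of acylglycerols and drug esters, was at 202, 190.1 and 130.5 CPM in the SI tissue libraries and at 749, 730.4 and 746 CPM in the SI monolayers. Every monolayer library lay far above every tissue library. The gene rose 4.26-fold (log2 2.09 ± 0.17, adjusted p = 2.04e-06), and its log2 fold change stayed between 1.92 and 2.21 when any 1 library was left out.

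Ces2e, known as a pyrethroid-hydrolysing carboxylesterase, moved the other way. It was at 941, 804 and 659 CPM in SI tissue and at 294, 289 and 298 CPM in SI monolayers. All monolayer libraries were below all tissue libraries, and the gene fell 2.73-fold (log2 -1.45 ± 0.11, adjusted p = 2.55e-07).

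Ces2c, an acylglycerol hydrolase of the intestinal lining, was at 425, 375 and 332 CPM in SI tissue and at 599.6, 573 and 602 CPM in SI monolayers. The groups did not overlap, and the 1.57-fold difference (log2 0.65 ± 0.08, adjusted p = 2.17e-06) was under the fold threshold. Ces2b, whose coding sequence is closest to that of Ces2c, had 3.85 to 5.95 CPM in SI tissue and 3.89 to 4.61 CPM in SI monolayers. These ranges overlapped (log2 -0.26 ± 0.16, adjusted p = 0.170).

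Ces1f, a microsomal lipase first described in liver, was at 109, 52.6 and 60.5 CPM in SI tissue and at 20.4, 20.8 and 21.0 CPM in SI monolayers. The first tissue library stood apart from the other 2, and all 3 were above the monolayers. The fall was 3.58-fold (log2 -1.84 ± 0.30, adjusted p = 0.000611), and over all fits without 1 library it lay between -2.03 and -1.45. Ces1e, the enzyme also known as egasyn that holds beta-glucuronidase in the endoplasmic reticulum, went from 22.3 ± 5.61 to 7.14 ± 0.423 CPM (log2 -1.64 ± 0.15, adjusted p = 7.86e-08).

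Ces1d, a triacylglycerol hydrolase of liver and fat, went from 3.77 ± 1.0 to 1.77 ± 0.110 CPM (log2 -1.08 ± 0.29, adjusted p = 0.00606). This call was lost without SI tissue replicate 1 (log2 -0.91, adjusted p = 0.0236) and without SI monolayers replicate 1 (log2 -1.0, adjusted p = 0.0352). Ces1g, a liver enzyme that acts on triacylglycerol and cholesteryl ester, was the Ces1 gene with a positive value. It was at 1.54, 1.20 and 2.02 CPM in SI tissue and at 2.52, 2.66 and 2.69 CPM in SI monolayers (log2 0.72 ± 0.23, adjusted p = 0.0147), under the fold threshold.

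The comparison of LI monolayers with LI tissue asks the same of the large intestine. All 8 genes fell, where 23.5% of tested genes were called lower and 14.5% higher. None of the 8 overlapped between the groups, against 73.0% of tested genes without overlap. The median log2 fold change of the 8 was -4.38, beside -0.05 over all tested genes.

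The 4 Ces1 genes had the larger falls in LI, between log2 -5.14 and -5.74, and the 4 Ces2 genes lay between -2.13 and -3.63. Ces1g was at 9.30, 16.2 and 9.21 CPM in LI tissue and at 0.203, 0.171 and 0.265 CPM in LI monolayers. It fell 53.5-fold (log2 -5.74 ± 0.30, adjusted p = 5.96e-11), on 10 to 18 counts per monolayer library. Ces1f was at 51.8, 68.2 and 47.1 CPM in LI tissue and at 0.986, 1.79 and 0.883 CPM in LI monolayers.

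That is a 46.3-fold fall (log2 -5.53 ± 0.39, adjusted p = 1.19e-06), with no monolayer library near the tissue values. Ces1e fell 36.1-fold, from 14.3 ± 1.22 to 0.396 ± 0.0416 CPM (log2 -5.17 ± 0.20, adjusted p = 1.81e-12). Ces1d fell from 12.7 ± 1.95 to 0.362 ± 0.225 CPM (log2 -5.14 ± 0.35, adjusted p = 2.22e-08). Its monolayer libraries held 8, 24 and 38 counts and were the most uneven of the 8 genes for their level, while each was above the limit of 3 counts.

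Among the Ces2 genes in LI, Ces2e was at 234, 235 and 206 CPM in tissue and at 16.1, 19.9 and 18.6 CPM in monolayers, a 12.3-fold fall (log2 -3.63 ± 0.13, adjusted p = 4.85e-11). Ces2a was at 103, 112 and 88.1 CPM in LI tissue and at 12.6, 16.8 and 14.1 CPM in LI monolayers, a 6.96-fold fall (log2 -2.80 ± 0.18, adjusted p = 1.85e-07). Ces2c, at 312, 339 and 288 CPM in tissue, kept 71.3, 73.4 and 69.6 CPM in monolayers. Its fall of 4.38-fold (log2 -2.13 ± 0.08, adjusted p = 1.21e-12) was the smallest of the 8, and it remained the most abundant of them per length at 31.1 ± 0.830 CPM per kb. Ces2b fell 10.1-fold to 0.672 ± 0.0315 CPM (log2 -3.33 ± 0.18, adjusted p = 9.69e-11).

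**Figure D3:**
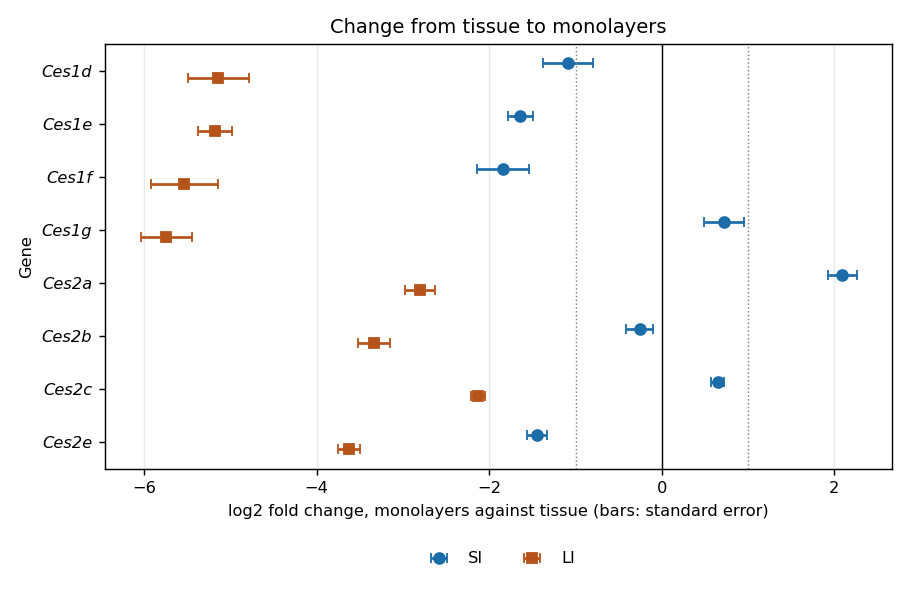
Log2 fold change from tissue to monolayers for each carboxylesterase in SI (circles) and LI (squares), with standard errors; dotted lines mark the threshold of 1. In LI all 8 values lie between -5.74 and -2.13, and in SI they lie on both sides of 0, from -1.84 for Ces1f to 2.09 for Ces2a.

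Whether the change in culture differed between SI and LI was tested as an interaction, the log2 fold change in SI minus that in LI. It was called higher for all 8 genes, where 11.4% of tested genes were called higher and 8.51% lower. The median over the 8 was 3.61 and over all tested genes 0.00. It was largest for Ces1g at 6.46 ± 0.38 (adjusted p = 2.60e-09) and for Ces2a at 4.89 ± 0.24 (adjusted p = 1.35e-07), the genes with opposite signs of change in SI and LI besides Ces2c at 2.78 ± 0.11 (adjusted p = 3.84e-11). It was smallest for Ces2e at 2.18 ± 0.16 (adjusted p = 4.01e-07), which fell in both regions. The interaction is built from the same 12 libraries as the comparisons on either side of it and is no separate evidence for them.

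In tissue the genes called between the regions went in both directions. Of the 8 genes, 1 was higher in SI tissue than in LI tissue (Ces2e) and 2 were lower (Ces1d and Ces1g), where 11.6% of tested genes were called higher and 11.1% lower. These counts are too small to set the 8 genes apart from all tested genes. The libraries of 6 of the 8 did not overlap, against 58.6% of tested genes. Ces2e was 3.56-fold higher in SI (log2 1.83 ± 0.12, adjusted p = 4.09e-08). Ces1g was 7.27-fold lower in SI (log2 -2.86 ± 0.24, adjusted p = 4.34e-08), and Ces1d 3.38-fold lower (log2 -1.76 ± 0.28, adjusted p = 0.000134).

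The other 5 genes did not reach the fold threshold between the tissues. Ces2a had a log2 difference of 0.79 ± 0.16 (adjusted p = 0.00226), Ces1e of 0.64 ± 0.14 (adjusted p = 0.00114), Ces2b of -0.43 ± 0.16 (adjusted p = 0.0271) and Ces2c of 0.27 ± 0.08 (adjusted p = 0.00753). For Ces1f the difference of 0.41 ± 0.29 was within the spread of the libraries (adjusted p = 0.269).

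Between the monolayers, all 8 genes were higher in SI than in LI, where 12.4% of tested genes were called higher and 8.88% lower. All 8 were without overlap, against 62.4% of tested genes. The median log2 difference was 3.81, beside 0.02 over all tested genes. Ces2a had the largest difference at 51.2-fold (log2 5.68 ± 0.20, adjusted p = 4.53e-09). Ces1e followed at log2 4.17 ± 0.20, Ces1f at 4.11 ± 0.39 and Ces2e at 4.01 ± 0.13.

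For Ces1d (log2 2.30 ± 0.36, adjusted p = 0.000143) and Ces1g (log2 3.60 ± 0.30, adjusted p = 5.64e-08) the order of the regions was opposite to that in tissue. Ces2b, which was lower in SI tissue than in LI tissue by less than the fold threshold, was higher in SI monolayers by log2 2.64 ± 0.18 (adjusted p = 5.06e-09). Ces2c, nearly level between the tissues, was 8.28-fold higher in SI monolayers (log2 3.05 ± 0.08, adjusted p = 1.41e-13).

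**Figure D4:**
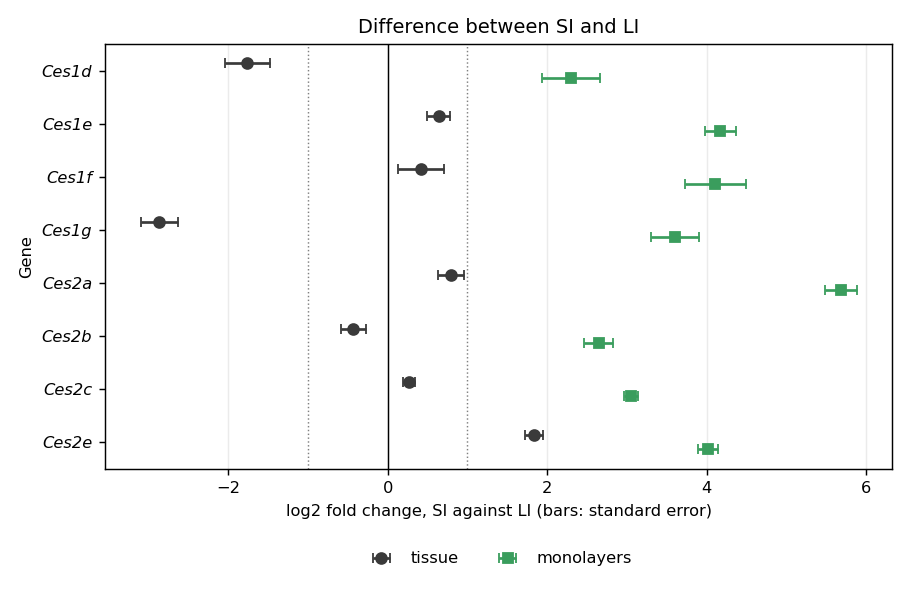
Log2 fold change of SI against LI for each carboxylesterase in tissue (circles) and in monolayers (squares), with standard errors; dotted lines mark the threshold of 1. In monolayers all 8 values are positive, from 2.30 to 5.68, while in tissue they run from -2.86 for Ces1g to 1.83 for Ces2e.

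The other carboxylesterase genes were listed to see how far these patterns held in the rest of the family. Of 12, 5 had too few counts to test (Ces1a, Ces1h, Ces3b, Ces4a and Ces5a). The 7 tested include the pseudogene Ces2d-ps, whose counts may hold reads of Ces2c. In LI all 7 that were tested fell in monolayers, where 23.5% of tested genes were called lower. All 7 were higher in SI than in LI monolayers, where 12.4% of tested genes were called higher. Some of these calls rest on few counts. Ces1c had 2, 4 and 0 counts in the LI monolayer libraries. Ces3a had 13, 2 and 6 counts in SI monolayers and none in LI monolayers. With the limit of 3 counts per library its difference between the monolayers is 2.16-fold. In SI 1 rose (Ces2f) and 2 fell (Ces1c and Ces2h), where 9.71% of tested genes were called higher and 16.4% lower. Ces1b fell in LI (log2 -4.48 ± 0.59, adjusted p = 4.08e-06), from 0.951 ± 0.511 to 0.0405 ± 0.0153 CPM, with 4, 2 and 2 counts in the monolayer libraries, and was not called in SI (log2 -0.80 ± 0.49, adjusted p = 0.177). The median log2 fold change of the 7 was -0.80 in SI. In LI it was -4.48, and -1.97 with Ces2h and Ces3a, which had no count in the 3 LI monolayer libraries, set to the limit of 3 counts per library. That -1.97 is the value of Ces2d-ps.

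Ces2g was the most abundant of these others, with 53.1 ± 18.5 CPM in tissue against 40.1 ± 0.802 in monolayers of SI, and 22.5 ± 5.05 against 8.26 ± 1.62 CPM in LI. Ces2f, the gene next to Ces2e, had the same direction of change in each region as Ces2a. It rose from 0.692 ± 0.157 to 2.80 ± 0.401 CPM in SI (log2 2.01 ± 0.26, adjusted p = 4.96e-06) and fell from 5.45 ± 1.3 to 1.31 ± 0.371 CPM in LI (log2 -2.05 ± 0.24, adjusted p = 1.3e-06). The pseudogene Ces2d-ps, which shares sequence with Ces2c, also had the order of Ces2c, with 6.04 ± 0.511 CPM in SI monolayers and 0.934 ± 0.410 in LI monolayers.

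Other enzymes that hydrolyse prodrugs had medians closer to 0. Of 12 listed, 11 were tested (not Pon1), and in LI monolayers 7 fell (Aadac, Bche, Bphl, Cmbl, Ctsa, Hint1 and Pon3), with a median of -1.11. In SI monolayers 3 fell (Bche, Cmbl and Pon3) and 1 rose (Esd), with a median of -0.45. Of all tested genes, 23.5% were called lower in LI monolayers, and 16.4% lower and 9.71% higher in SI monolayers. Aadac, an arylacetamide deacetylase that cuts drug amides and esters, had the pattern nearest to the carboxylesterases. Its levels in SI were 67.7 to 119 CPM in tissue and 71.1 to 77.3 in monolayers, and in LI 43.7 to 58.6 and 0.797 to 1.44 CPM. It fell in LI (log2 -5.50 ± 0.30, adjusted p = 1.18e-07) and was not called in SI (log2 -0.23 ± 0.22, adjusted p = 0.399). Esd, an esterase that also detoxifies formaldehyde, rose in SI monolayers (log2 1.03 ± 0.06, adjusted p = 2.42e-10). Hint1, a phosphoramidase that opens nucleotide prodrugs, fell in LI monolayers by a value at the threshold (log2 -1.01 ± 0.08, adjusted p = 6.48e-09).

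The genes that act after the carboxylesterases on irinotecan and capecitabine did not share one pattern. Of 8, 5 fell in SI monolayers (Cda, Tymp, Upp1, Dpyd and Ugt1a1), where 16.4% of tested genes were called lower. In LI monolayers 4 fell (Upp1, Dpyd, Ugt1a1 and Abcg2), where 23.5% of tested genes were called lower. The medians of the list were -1.34 in SI and -1.10 in LI. Between the monolayers 5 were higher in SI (Cda, Tymp, Dpyd, Ugt1a1 and Abcg2), where 12.4% of tested genes were called higher. Ugt1a1, which glucuronidates the active product of irinotecan and whose counts are uncertain because the Ugt1a genes share exons, fell by nearly the same amount in SI (log2 -1.33 ± 0.21) and LI (log2 -1.34 ± 0.24), with an interaction of 0.01 ± 0.30 (adjusted p = 0.99). The target of that product, Top1, passed the fold threshold in none of the 5 comparisons and had 143 to 161 CPM in SI monolayers and 144 to 157 CPM in LI monolayers. Upp1, a uridine phosphorylase that releases fluorouracil, fell in LI from 530 to 637 CPM down to 19.0 to 19.9 CPM (log2 -4.92 ± 0.16).

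Of 11 genes for transcription factors known to control hydrolases and other drug-metabolising genes, none was called by edgeR in SI monolayers against SI tissue. All 11 had an adjusted p below 0.05 there and a fold change under the threshold. In LI 7 fell (Cdx1, Cdx2, Hnf4g, Nr1h4, Nr1i2, Nr1i3 and Ppara), where 23.5% of all tested genes were called lower. The medians of the 11 were -0.54 in SI and -1.34 in LI. Nfe2l2, the gene of Nrf2, went up by less than the threshold in SI (log2 0.83 ± 0.07) and LI (log2 0.82 ± 0.07). Nr1h4 had a positive value in SI (log2 0.36 ± 0.08). Nr1i2, the xenobiotic receptor PXR, went from 82.5 to 90.5 CPM in LI tissue to 28.2 to 33.3 CPM in LI monolayers (log2 -1.52 ± 0.07). Ppara, the receptor for fatty acids and fibrates, fell in LI to 1.62 to 2.07 CPM (log2 -2.20 ± 0.13). Hnf4a was not called in any of the 4 pairwise comparisons. The part of these 11 genes in the change of the carboxylesterases was not tested.

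Markers of cell types also differed between the groups. Of all tested genes, 9.71% were called higher and 16.4% lower in SI monolayers than in SI tissue. For LI these shares were 14.5% and 23.5%. Between the tissues 11.6% were called higher and 11.1% lower in SI. The summed level of 12 enterocyte markers was 16972 to 26484 CPM in SI tissue and 6105 to 6260 in SI monolayers, and 8 of the 12 fell. In LI it was 1462 to 1789 CPM in tissue and 1116 to 1231 in monolayers, and 3 of the 12 fell (Fabp2, Mep1a and Slc5a1). Most of the LI sums was Vil1, at 911 to 1043 CPM in tissue and 934 to 978 in monolayers. The 8 colonocyte markers summed to 3289 to 5572 CPM in LI tissue, and in LI monolayers, where 5 of them fell, to 868 to 881 CPM. In SI they summed to 1664 to 2217 CPM in tissue and 757 to 771 in monolayers. Between the tissues 5 were lower in SI and 1, Mep1b, was higher (log2 2.23 ± 0.14). Car1 was at 755, 3122 and 709 CPM in the LI tissue libraries. The 8 immune markers summed to 159 to 170.1 CPM in SI tissue and 47.9 to 53.7 in SI monolayers, and to 32.7 to 36.3 and 7.64 to 9.26 CPM in LI. Of them 5 fell in SI and 6 in LI, while Cd68 rose in both (log2 1.63 ± 0.21 and 2.24 ± 0.21). Most of the sum in SI monolayers was Lyz2, at 38.6 to 43.8 CPM, beside 23.0 to 73.2 CPM in SI tissue. Ptprc went from 42.4 to 68.4 CPM in SI tissue to 2.16 to 2.69 CPM in SI monolayers. The 8 mesenchymal markers of LI summed to 45.3 to 64.0 CPM before culture and 62.3 to 86.3 after it, with 3 called higher (Lum, Pdgfra and Vim) and 1 lower (Dcn). In SI they summed to 18.6 to 45.1 and 22.2 to 32.2 CPM, and 1 fell (Dcn). No marker of these 4 lists was at 0 in a whole group, and their part in the change of the carboxylesterases was not tested. Markers of liver and fat, other tissues rich in Ces1 enzymes, were also measured. The 8 hepatocyte markers summed to 1285 to 1474 CPM in SI tissue and 371 to 383 in SI monolayers, nearly all of it Cps1, which enterocytes also express. In LI they summed to 29.7 to 54.0 CPM before culture and 7.25 to 15.2 after it, and Ttr made up 16.4 to 29.5 CPM of the tissue values. The 8 adipocyte markers summed to 28.1 to 41.3 CPM in the SI libraries, most of it Cidec, and to 5.40 to 12.04 CPM in the LI libraries, with Lpl at 3.34 to 6.42 CPM in LI tissue. Alb reached at most 0.731 CPM in any library, Ahsg had no count in 3 of the 4 groups, Lep none in any group and Adipoq none in SI. The part of these genes in the results was not tested.

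The genes whose levels ran most like those of Ces1f and Ces2c, which had the highest CPM per kb of their family as a mean over the 12 libraries, were sought among 9214 other genes with a mean of at least 10 CPM. Across the 12 libraries, which are 4 groups of 3 and so mostly share their group differences, the nearest to Ces1f by Pearson's r of log2 CPM were Fuom (0.992), Lmnb2 (0.991), Mgst1 (0.989) and Cryl1 (0.989). Mgst1, a microsomal glutathione transferase, had means of 166 CPM in tissue and 68.5 in monolayers of SI, and of 173 and 3.20 CPM in those of LI. The nearest to Ces2c were Stard4 (0.994), Gpi1 (0.993), Gm21885 (0.992) and Grhpr (0.991). Stard4, a sterol carrier, had means of 246, 304, 210 and 99.6 CPM in the same order of groups. An r above 0.95 was reached by 284 genes for Ces1f and by 65 for Ces2c. Within the 8, Ces1f ran closest to Ces1e (r = 0.994) and Ces2c to Ces2a (r = 0.968).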

How the data were processed

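RNA-seq of 12 mouse libraries was analysed. The authors deposited raw counts per gene (paired-end reads, GRCm38, STAR 2.7.9a, featureCounts 2.0.2, GENCODE genes) and a normalized signal, in which 1 DESeq2 size factor scales each library. Strand, mate and multi-mapping settings were not given in the sources used here; 73.4% to 77.4% of counts from 1 to 20 were even. All columns were mapped to samples.

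Raw counts were tested with edgeR 4.0.16 (filterByExpr, TMM, robust quasi-likelihood fit, 4 group means, Benjamini-Hochberg adjustment over 19581 genes). Alternatives were DESeq2 1.42.0, upper quartile scaling, other filters, no minimum fold, only the groups compared, a replicate block, and each library left out. The fit was tested on simulated data. Transcript lengths are union exons of GENCODE (GRCm38). Sequences were aligned with MAFFT 7.526. Same-numbered libraries deviated from their group means with correlations of -0.0516 to 0.0563, so numbers were not taken as pairs.

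Members and lists were chosen with earlier results of these data known. Genes could be named if they were members, tested carboxylesterases, list genes past the threshold in the comparison described or among the 3 most abundant of their list, or the 4 genes most like Ces1f or Ces2c. Sis, Alb, Ahsg, Lep, Adipoq and Nfe2l2 were named after their values were seen. P-values rest on a spread per gene shared by all 12 libraries, so each mixes spread between mice (tissue) and between pooled wells (monolayers). Spread between pooled wells may be technical. It was smaller than that between mice, which can lower the p-values between the tissues.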

Additional observations from a re-analysis of the deposited data

Results flagged for a closer look

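The change from tissue to monolayers differed between SI and LI for each of the 8 carboxylesterases, by the test of the difference itself. The log2 difference (SI change minus LI change) was 6.46 for Ces1g, which was at a mean of 1.59 CPM in SI tissue and 2.62 in SI monolayers but went from 11.6 to 0.213 CPM in LI. It was 4.89 for Ces2a, which rose from 174 to 742 CPM in SI and fell from 101 to 14.5 CPM in LI. It was 4.06 for Ces1d (adjusted p = 1.08e-05), 3.70 for Ces1f (adjusted p = 0.000240), 3.53 for Ces1e (adjusted p = 1.77e-08) and 3.08 for Ces2b (adjusted p = 4.35e-08). It was 2.78 for Ces2c and 2.18 for Ces2e. The 8 values come from 1 model of the same 12 libraries and are not separate evidence, and 11.4% of all tested genes were called in this direction.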

How the results depend on the processing

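Of 5 counts of called members, 4 stayed within 1.5 times under every alternative. The count for SI tissue against LI tissue was 3, and 7 with no minimum fold change. Leaving out each library in turn, the counts ranged from 4 to 5 for culture in SI, stayed at 3 between the tissues, and stayed at 8 in the other 3 comparisons. A replicate block (paired fit by replicate number) gave counts of 5, 8, 3, 8 and 8 and changed no call. No fold change reversed. With a library left out, 478 fold changes kept their call, and the 2 that did not were those of Ces1d in SI culture, at -0.91 and -1.0. A minimum of 10 counts in every library removed Ces1d from the fit. The summed level in SI monolayers was 1663 CPM with TMM, 1623 from the authors' normalized signal and 1696 from raw totals. The limit of measurement was set at 3 counts per library, which is 0.0394 to 0.0508 CPM before TMM scaling.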
